A study of Mus musculus with 4 samples.

Results

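The genes described here are 10 genes of the cellular response to low oxygen, followed in mouse blastocysts with and without a paternal genome. They are the transcription factor subunits Hif1a and Arnt, the oxygen sensors Egln1 and Egln3, the ubiquitin ligase component Vhl, and the hypoxia-induced genes Vegfa, Bnip3, Adm, Ndrg1 and Ddit4. The list was drawn up by name. All probe sets (groups of short probes that together give 1 value) annotated to a single gene were taken where that gene was on the list. This gave 26 probe sets, from 1 (Bnip3, Ddit4) to 5 (Arnt, Ndrg1) per gene, of 34945 probe sets with a single gene symbol (18193 genes) and 45101 in all.

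The 4 groups were measured 96 hours into development, each as 1 pool of 30 embryos on 1 array. Parthenogenetic embryos come from an activated oocyte without sperm and carry maternal chromosomes only, whereas fertilized embryos carry both parental genomes. Each origin was sampled at both ploidies, the tetraploid embryos having been produced by fusion, and the series counts tetraploid embryos as pseudoreplicates of the diploid ones. The labels used here name no mouse strain, no activation agent and no oxygen level of the culture. The series compares parthenogenetic with fertilized embryos, and the question for these genes is whether they differ in parthenogenetic embryos, in which Epas1 has a low signal.

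Hypoxia-inducible factors (HIFs) are dimers of an oxygen-labile alpha subunit, encoded by Hif1a or Epas1, and a stable partner encoded by Arnt. When oxygen is present, prolyl hydroxylases of the EGLN family modify the alpha subunit, the VHL protein binds the modified form, and the ubiquitin ligase built around VHL marks it for degradation. At low oxygen the alpha subunit accumulates, enters the nucleus with ARNT and binds a short core sequence near genes for blood vessel growth, glucose use, mitophagy and growth arrest. Much of this control acts on protein stability, which RNA signals do not show.

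The core bound by HIF is A or G followed by CGTG. It was searched as ACGTG and GCGTG on both strands of RefSeq promoters (build GRCm38.p6), each running from 250 bases before to 50 bases after an annotated start. Of the 10 genes, 9 were matched by symbol, with 10 promoters. Ndrg1 had no match, so its promoter was not searched. A core was found in 8 of these 10 promoters, against 43.8% of all 32851 promoters in that table, and 2 or more cores in 6 of them, against 20.6%. CACGTG is counted as 2 overlapping cores, since it reads ACGTG on both strands, and occurs in 7.15% of all promoters. The promoter of Bnip3 held 5 cores, a count reached or passed by 1.66% of promoters. Those of Ddit4, Adm and Egln1 held 2 each, that of Hif1a 3, and those of Arnt and Egln3 1 each. The Vhl promoter and the first of the Vegfa promoters held none, and the other Vegfa promoter held 2. A match describes letters in this window and is not evidence of binding. The stretches below show where the cores lie in 3 hypoxia-induced genes and in the sensor gene Egln1. They run along the strand of each gene up to 15 bases past the outermost cores, and capitals mark the cores on either strand.
Bnip3, chr7:138909522-138909638, minus strand, 132 to 16 bases before the start: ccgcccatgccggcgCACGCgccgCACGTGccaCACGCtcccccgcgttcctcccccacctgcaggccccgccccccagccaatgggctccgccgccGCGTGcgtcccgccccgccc
Ddit4, chr10:59951866-59951972, minus strand, 202 to 96 bases before the start: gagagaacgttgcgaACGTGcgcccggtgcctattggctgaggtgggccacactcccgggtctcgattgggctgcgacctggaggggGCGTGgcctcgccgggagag
Adm, chr7:110627552-110627622, plus strand, 105 to 35 bases before the start: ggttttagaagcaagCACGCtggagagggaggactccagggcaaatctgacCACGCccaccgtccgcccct
Egln1, chr8:124949303-124949395, minus strand, 141 to 49 bases before the start: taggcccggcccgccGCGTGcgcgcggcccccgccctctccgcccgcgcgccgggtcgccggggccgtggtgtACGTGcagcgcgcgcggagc

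The values are MAS5 signals on a linear scale with no unit. Each array has a control floor, the 95th percentile of the signals of 27 bacterial control probe sets, which ranged from 99.7 to 150.3, and median signals ranged from 104 to 154. The labelled stage was checked against lineage markers. All 12 trophectoderm and all 10 epiblast markers lay above the floor on all 4 arrays, and of 10 primitive endoderm markers all 10 did on 3 arrays and 9 on the parthenogenetic tetraploid array. Oocyte transcripts were above the floor for 0 to 2 of 9 genes, and cumulus cell markers for 1 of 8 on 3 arrays and 4 on the parthenogenetic diploid one. The parthenogenetic tetraploid array stood apart. Its summed signal of epiblast markers was 38753, against 55098 to 59996 on the others, that of primitive endoderm markers was 18482 against 32792 to 39590, and its Actb controls, where a 3' probe set was divided by a mid-transcript one, gave 9.28 against 5.13 to 7.55. The part of these differences in the results below was not tested.

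No listed gene was called as changed between parthenogenetic and fertilized blastocysts, whereas Epas1 was far lower in parthenogenetic ones on the same arrays. Transcripts of Hif1a, Arnt, Egln1, Vhl, Bnip3, Ddit4 and Ndrg1 gave signals above the floor on all 4 arrays by at least 1 probe set. Ndrg1 came nearest to a difference, with 2 of its 5 probe sets 1.89-fold and 2.17-fold lower in parthenogenetic embryos (standard errors of 0.26 and 0.30 on the log2 scale), short of the threshold. Egln3 was below the floor everywhere. Differences are given as parthenogenetic minus fertilized on the log2(signal + 10) scale, with the standard error and adjusted p of limma (a linear model that shares information on the spread between probe sets), from 2 arrays per origin. In such pools, fewer cells of a type and less RNA per cell cannot be told apart.

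Of the 26 probe sets, 19 from 9 genes passed the filter on low signals and were tested. Of these 19, 0 had an adjusted p under 0.05 by limma, where 0.173% of all 23746 probe sets tested did. At an unadjusted p under 0.05 the count was 2 of 19, both of Ndrg1, where the background was 8.86%. The adjusted p values of the 19 ran from 0.29 to 0.998 and the standard errors from 0.21 to 1.41. The signals of the 2 origins did not overlap in 8 of the 19 probe sets, and they failed to overlap in 40.5% of all probe sets tested. With the parthenogenetic signals lower this held for 6 of 19, against 19.0% of all. These counts are not independent, since 3 of the 6 belong to Ndrg1. Among the 8 are 2 probe sets, of Arnt and Adm, that passed the filter only through the origin in which they are high. That way of passing favours a gap between the origins, and the Adm probe set is also among the 6. Of all probe sets tested, 6.92% passed in that way.

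In all, 14 of the 19 fitted differences were below 0, with a median of -0.26, while 49.1% of all probe sets tested were below 0, with a median of 0.01. By the brightest tested probe set of each gene, 7 of 9 were below 0, where 5532 of all 11404 genes tested were. Without the Adm and Arnt probe sets that passed the filter only through 1 origin, 13 of 17 probe sets were below 0. By gene this left 6 of 8 below 0, with a median of -0.19. Leaving out 1 array at a time, 10 to 15 of 19 were below 0, fewest without the fertilized tetraploid array, where the median was -0.03. Scaling the arrays to a common median moved the median of all probe sets to -0.30 and that of the members to -0.57.

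**Figure D1:**
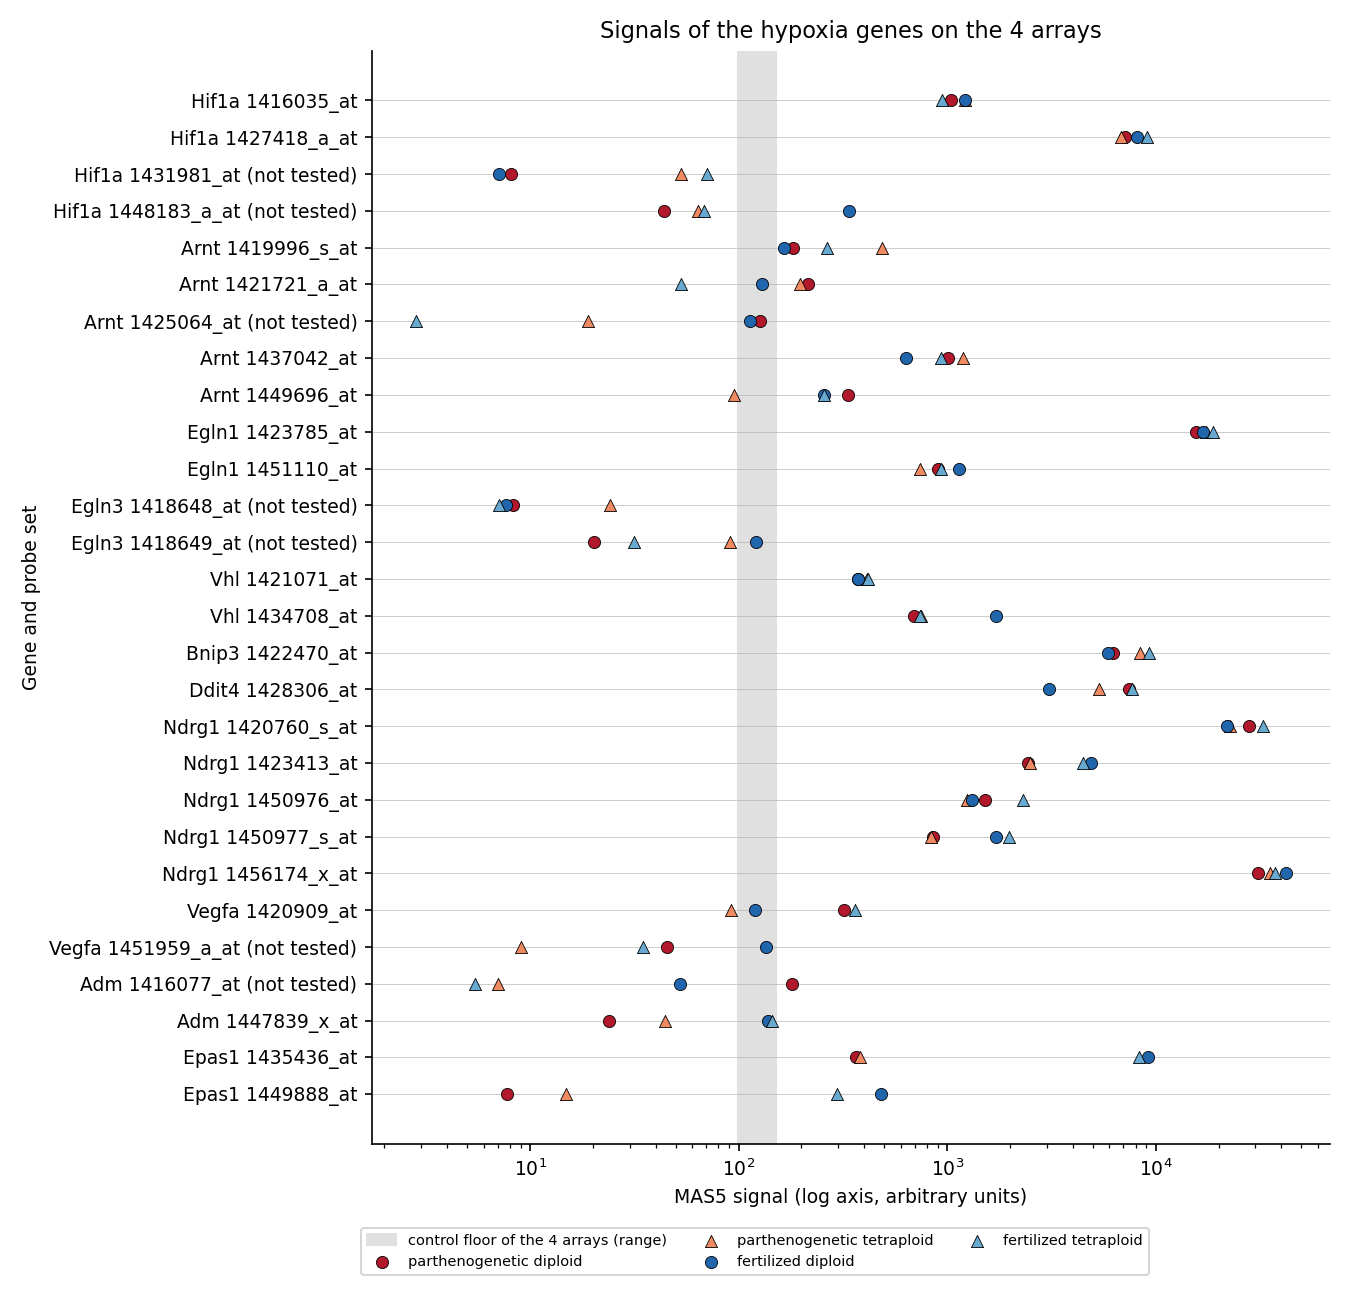
MAS5 signals (log axis) of all 26 probe sets of the 10 genes and 2 of Epas1, 1 point for each array. Red marks parthenogenetic and blue fertilized embryos, circles mark diploid and triangles tetraploid embryos, and the grey band is the range of the control floor. The 4 points lie close together for Hif1a 1427418_a_at, Egln1 and Bnip3, red and blue are apart in 2 Ndrg1 probe sets, and the widest gap is that of Epas1.

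Hif1a encodes the oxygen-labile alpha subunit that shares Arnt as a partner with Epas1. Its brightest probe set (1427418_a_at) gave 7158 on the parthenogenetic diploid and 6829 on the parthenogenetic tetraploid array, against 8133 for fertilized diploid and 9123 for fertilized tetraploid embryos. Both parthenogenetic signals were below both fertilized ones, with a difference of -0.30 ± 0.24 (limma adjusted p 0.72) and a 95% interval from 0.564 to 1.17 of the fertilized level. A further probe set (1416035_at) gave 1043 and 1212 in parthenogenetic against 1212 and 945 in fertilized embryos, overlapping (0.07 ± 0.32, adjusted p 0.96; -0.25 with common median scaling). The other Hif1a probe sets were not tested: 1431981_at was below the floor on every array, at 7.07 to 70.7, and 1448183_a_at was above it on the fertilized diploid array alone (337, against 43.8 to 68.2).

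Arnt encodes the constitutive partner of both alpha subunits, and 3 of its 4 tested probe sets had fitted differences above 0. The brightest (1437042_at) gave 1008 and 1186 in parthenogenetic diploid and tetraploid embryos, against 635 and 936 in fertilized ones. The groups did not overlap, at a difference of 0.50 ± 0.34 (limma adjusted p 0.67, 95% interval 0.843 to 2.37 of the fertilized level). The 1421721_a_at probe set passed the filter only through parthenogenetic embryos, where it is high. It gave 214 and 197 against 129 and 52.7, the latter pair below the floor of their arrays. By mean log2 signal over the 2 arrays of each origin, the parthenogenetic level was at least 1.65-fold higher (fitted 1.21 ± 0.77, limma adjusted p 0.66). The 95% interval of the fit, 0.719 to 7.39 of the fertilized level, still included no difference. The 2 remaining tested probe sets stem from 1 source sequence and lay on opposite sides of 0. The first (1419996_s_at) gave 183 and 488 against 164 and 265, a difference of 0.50 ± 0.55, or -0.18 without the parthenogenetic tetraploid array. The second (1449696_at) gave 336 and 94.9 against 257 and 258, a difference of -0.49 ± 0.61, or 0.37 without that array. The parthenogenetic tetraploid array was thus the highest of the 4 by one and the lowest by the other. The remaining Arnt probe set, 1425064_at, was not tested, with signals of 2.82 to 127.

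Neither Egln1 nor Vhl was called by either of its probe sets. Egln1 encodes the prolyl hydroxylase PHD2, the main oxygen sensor of most cells. Its brighter probe set gave 15585 and 17429.6 in parthenogenetic diploid and tetraploid embryos against 16854 and 18862 in fertilized ones. The groups overlapped, and the difference of -0.11 ± 0.23 (limma adjusted p 0.90) had a 95% interval from 0.657 to 1.30 of the fertilized level. Its dimmer probe set gave 901 and 736 against 1142 and 935 (-0.34 ± 0.33, adjusted p 0.76), with both parthenogenetic signals below both fertilized ones.

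Egln3 encodes PHD3, a hydroxylase that is itself induced by hypoxia in many tissues. Its probe sets gave 7.13 to 24.2 and 20.3 to 122, below the floor on each array, so no fold can be given for it. Vhl, whose product recognises hydroxylated alpha subunits, gave 373 and 414 in parthenogenetic against 374 and 416 in fertilized embryos by 1421071_at. Within each ploidy the 2 origins were nearly equal (-0.01 ± 0.38, adjusted p 0.998), although the 95% interval still ran from 0.56 to 1.77 of the fertilized level. The brighter Vhl probe set (1434708_at) gave 697 and 749.5 against 1707 and 744. The fertilized diploid array was thus the high one and the other 3 lay together, and the difference of -0.64 ± 0.40 (adjusted p 0.65) was -0.04 without that array.

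**Figure D2:**
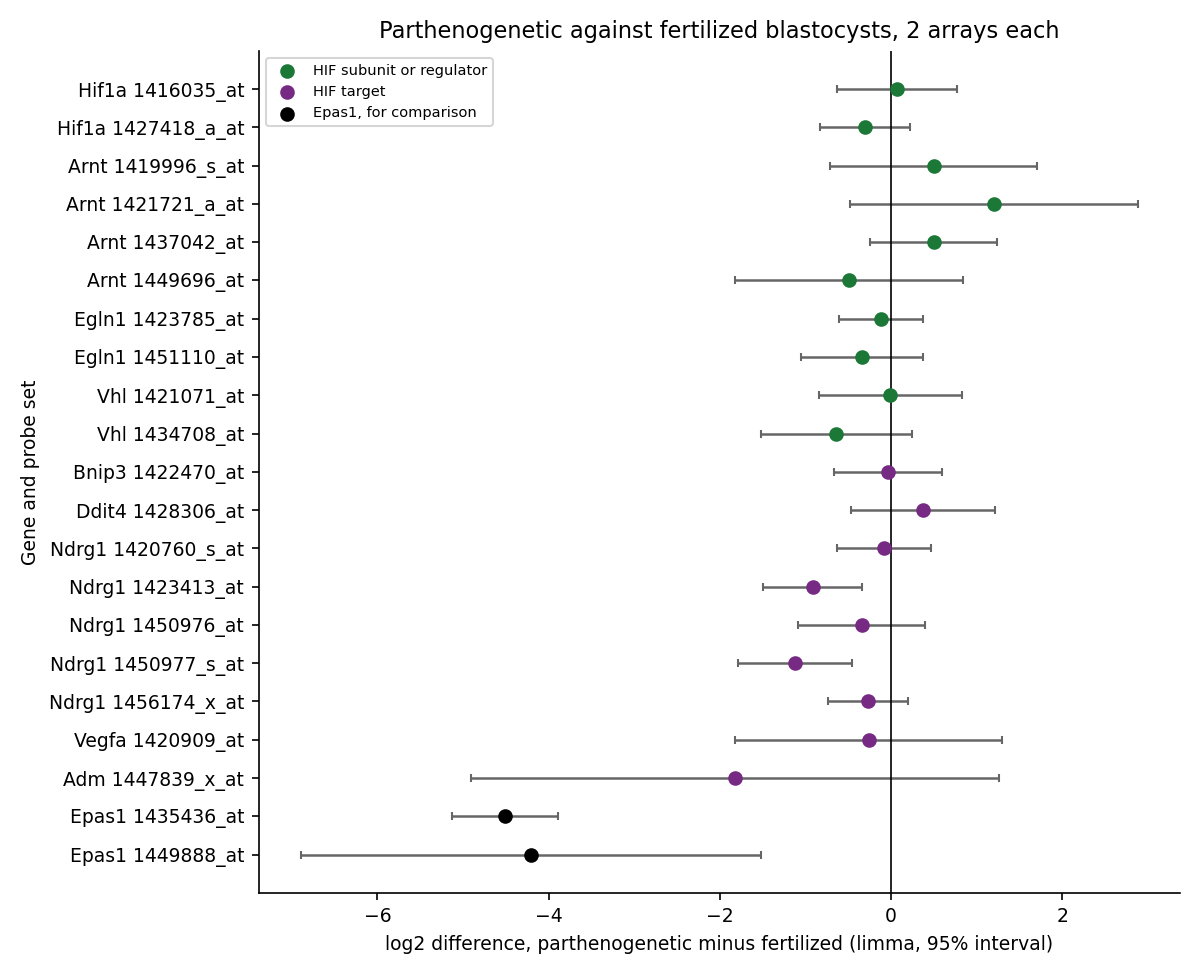
Log2 differences, parthenogenetic minus fertilized, of the 19 tested probe sets and 2 of Epas1, with limma 95% intervals from 2 arrays per origin. Green marks subunits and regulators, purple hypoxia-induced genes and black Epas1. Of the 19 intervals, 17 include 0, and the 2 that do not belong to Ndrg1.

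For comparison, Epas1 encodes the other oxygen-labile alpha subunit. By its brighter probe set it gave 365 and 383 without a paternal genome and 9153 and 8337 with one (-4.51 ± 0.29, limma adjusted p 4.04e-05, or 0.18 without the intensity trend, a setting that called 0 of all probe sets). Its dimmer probe set (1449888_at) gave 7.75 and 14.8 against 482 and 296. The parthenogenetic signals of this probe set were below the floor, so the gap in mean log2 signal was at least 2.76-fold. This probe set was not called (-4.21 ± 1.23, limma adjusted p 0.35). The 95% intervals of 18 of the 19 member probe sets lay wholly above that of the brighter Epas1 probe set, which ended at -3.88. The exception was Adm, whose interval was the widest. Epas1 was chosen for its low signal in these same data, and this probe set ranked 2 of 23746 by limma p. The count of 18 follows largely from that choice and does not set the members apart from other probe sets.

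Among the hypoxia-induced genes, Ndrg1, a gene linked to growth arrest, differentiation and stress, had the most to show. By 1423413_at it gave 2430.5 and 2507 in parthenogenetic diploid and tetraploid embryos, against 4874 and 4464 in fertilized ones. By 1450977_s_at it gave 852 and 837 against 1719.7 and 1984. In both probe sets the arrays of an origin were close to each other and the origins did not overlap. The differences were -0.92 ± 0.26 (limma adjusted p 0.34, 1.89-fold) and -1.12 ± 0.30 (adjusted p 0.29, 2.17-fold), neither past the threshold over all probe sets. With 12 alternative settings the differences were -1.24 to -0.85 for the first and -1.44 to -1.02 for the second. In the settings that kept all arrays, limma adjusted p values were 0.135 to 0.62 and 0.117 to 0.55. Many of the settings could not have reversed the direction. Changes of filter, trend or ploidy block leave the fitted difference as it was. Leaving out 1 array cannot reverse a probe set whose origins do not overlap. The unchanged direction is therefore no measure of robustness.

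The other 3 Ndrg1 probe sets did not show a difference of that size. The brightest, 1456174_x_at, gave 30870.5 and 35369 against 42239.6 and 37491 (-0.27 ± 0.21, adjusted p 0.72), with a 95% interval from 0.60 to 1.15 of the fertilized level. By 1420760_s_at Ndrg1 gave 28109 and 22809 against 22061 and 32606 (-0.08 ± 0.25, adjusted p 0.94), and by 1450976_at 1524 and 1239 against 1319 and 2311 (-0.34 ± 0.34, adjusted p 0.77). The last 2 overlapped between origins. In Affymetrix names the endings _s_at and _x_at mark probe sets that can also bind other transcripts, and whether the 5 report the same Ndrg1 transcripts was not tested.

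Bnip3, a mitochondrial protein gene that promotes mitophagy and a classic HIF target, gave 6221 and 8427 in parthenogenetic diploid and tetraploid embryos against 5935 and 9293 in fertilized ones. The origins overlapped, with a difference of -0.04 ± 0.29 (limma adjusted p 0.98) and a 95% interval from 0.63 to 1.51 of the fertilized level. This is the gene whose promoter stretch above holds the most cores. Both tetraploid arrays were above both diploid arrays.

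Ddit4 encodes REDD1, an inhibitor of the growth regulator mTORC1 that is induced by hypoxia and other stresses. Its signals were 7468 and 5323 in parthenogenetic diploid and tetraploid embryos, against 3071 and 7709.6 in fertilized ones. The lowest and the highest signal both came from fertilized embryos, and the difference of 0.37 ± 0.38 (adjusted p 0.78) was -0.29 without the fertilized diploid array.

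Vegfa, the growth factor that drives vessel formation, and Adm, a vasodilator peptide gene, were near the floor. For Vegfa, 1420909_at gave 319 and 92.2 in parthenogenetic diploid and tetraploid embryos against 120.03 and 361 in fertilized ones. Only the parthenogenetic diploid and the fertilized tetraploid signals were above the floor, so each origin had 1 high and 1 low array (-0.26 ± 0.71, adjusted p 0.93). A second Vegfa probe set stayed below the floor on all 4 arrays, at 8.997 to 135. For Adm, 1447839_x_at gave 23.95 and 44.2 against 138 and 144. Of these only the fertilized tetraploid signal exceeded its floor, so no fold is given (fitted difference -1.82 ± 1.41, adjusted p 0.71). The other Adm probe set was above the floor on the parthenogenetic diploid array alone (181, against 5.41 to 52.1). The 2 Adm probe sets thus pointed to different arrays.

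Within a single ploidy each origin has 1 array, so these differences have no test. The sign was the same in the diploid and the tetraploid pair for 11 of the 19 probe sets, where 56.9% of all probe sets tested shared it. The Ndrg1 probe sets 1423413_at and 1450977_s_at differed by -1.001 and -1.004 between the diploid arrays and by -0.83 and -1.24 between the tetraploid ones. The brightest Arnt probe set differed by 0.66 and 0.34, and the brighter Egln1 probe set by -0.11 in both pairs. Ddit4 and Vegfa went opposite ways, Ddit4 by 1.28 in diploid and -0.53 in tetraploid embryos and Vegfa by 1.34 and -1.86.

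**Figure D3:**
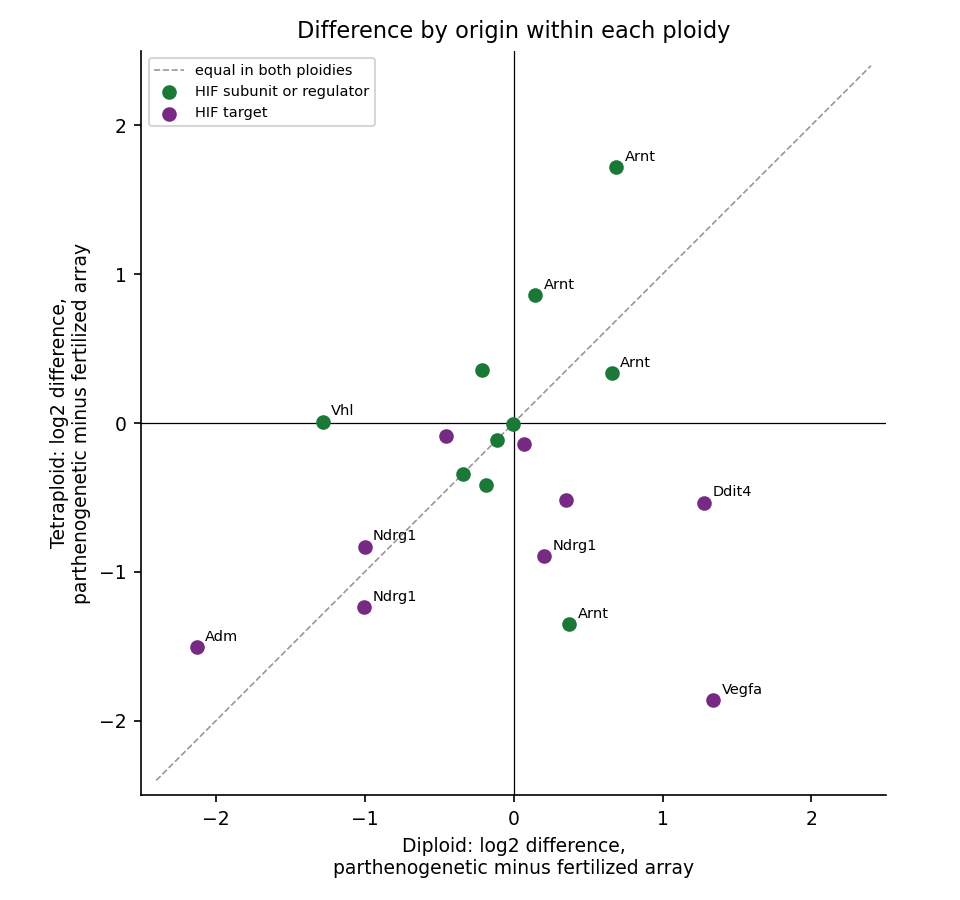
Log2 difference, parthenogenetic minus fertilized, between the diploid arrays (horizontal) and between the tetraploid arrays (vertical) for the 19 tested probe sets, with 1 array on each side of each difference and no test. Points on the dashed line differ equally in both ploidies. Ndrg1 at (-1.001, -0.83) and (-1.004, -1.24) lies near the line, and Vegfa at (1.34, -1.86) and Ddit4 at (1.28, -0.53) lie at the lower right.

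Fusion to tetraploidy was the other contrast of the design. With origin as a covariate and 1 residual degree of freedom, 0 of the 19 probe sets were called by limma between tetraploid and diploid embryos, where 0% of all probe sets tested were. At an unadjusted p under 0.05 the count was 1 of 19, the Bnip3 probe set, and 1424 of 23746 over all. Bnip3 was higher in tetraploid embryos by 0.54 ± 0.24 (tetraploid minus diploid on the log2 scale, limma adjusted p 0.81), by 0.44 among parthenogenetic and 0.65 among fertilized arrays. The Arnt probe set 1419996_s_at differed by 1.01 ± 0.52 (adjusted p 0.84). Hif1a by its brightest probe set differed by 0.05 ± 0.24 (adjusted p 0.99), and Ddit4 by 0.42 ± 0.33 (adjusted p 0.87).

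The rest of the pathway was described with 3 lists, taking the brightest tested probe set for each gene. They list 17, 40 and 24 genes, of which 54 in all were tested. Over all 11404 genes tested, 0.237% were called between origins, 14 higher and 13 lower in parthenogenetic embryos, with a median difference of 0.02. At an unadjusted p under 0.05 the share was 9.98%. Of 14 other HIF regulators tested, 1 fell, Epas1, and 0 rose, with 3 at an unadjusted p under 0.05 and a median of -0.05. Epas1 is among those 3 and was chosen for its low signal in these same data, so its call says nothing about the list. No other regulator of the list was called. Eloc, which encodes elongin C and links VHL to its ligase, gave 13906 and 14073 against 20318 and 20863 (-0.56 ± 0.22, limma adjusted p 0.53), its 4 probe sets ranging from -0.56 to -0.20. Cited2, whose product competes with HIF for the coactivators CBP and p300, gave 8027 and 7759 against 4563 and 5567 (0.65 ± 0.25, adjusted p 0.52). The differences of Siah2 (-1.08 ± 0.89) and Siah1a (0.57 ± 0.46), ubiquitin ligases that act on the EGLN enzymes, and of Hif1an (0.27 ± 0.38), the asparaginyl hydroxylase FIH, were not called either.

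Of 23 other targets outside glucose metabolism, 1 rose, the transferrin receptor Tfrc, and 0 fell, with 2 at an unadjusted p under 0.05 and a median of -0.04. Tfrc, which imports iron, gave 5708 and 5951 in parthenogenetic against 1597 and 1576 in fertilized embryos (1.87 ± 0.26, limma adjusted p 0.015). It was not called with common median scaling (1.55, adjusted p 0.17), nor with its probe sets averaged (1.77, adjusted p 0.21), and without the intensity trend no gene of the lists was called. Bhlhe40, a transcriptional repressor induced by hypoxia, gave 260.02 and 134 against 526 and 899 (-1.82 ± 0.46, adjusted p 0.24). It was called without the parthenogenetic diploid array (-2.27, adjusted p 0.0075), a setting that called 715 of all 23746 probe sets and in which its remaining parthenogenetic signal was below the floor. The other named differences, none called, were -1.10 ± 0.54 for Angptl4, -0.62 ± 0.32 for the histone demethylase gene Kdm3a, and 0.75 ± 0.39 for the cyclin G2 gene Ccng2. The collagen-modifying Plod1 passed the filter only through parthenogenetic embryos and was below the floor in fertilized ones. By mean log2 signal over the 2 arrays of each origin, its fertilized level was at least 1.63-fold lower. The fitted difference was not called (1.31 ± 0.80, limma adjusted p 0.64). The parthenogenetic tetraploid signals of Siah2, Bhlhe40 and Angptl4 were below the floor.

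Of 17 targets in glucose metabolism, 0 were called by limma and 6 had an unadjusted p under 0.05, against that 9.98% of all genes tested, with a median of -0.02. Of these 6, Pgk1, Pfkl and Pfkp were higher in parthenogenetic embryos, and Ak4, Aldoa and Hk2 were lower. The highest differences were those of the phosphofructokinase genes Pfkp (1.39 ± 0.60, adjusted p 0.56) and Pfkl (0.83 ± 0.36) and the pyruvate kinase gene Pkm (0.71 ± 0.43). The lowest were those of the glycogen branching enzyme Gbe1 (-1.12 ± 1.48, with 1 array of each origin below the floor), the adenylate kinase Ak4 (-0.65 ± 0.25) and the lactate dehydrogenase Ldha (-0.63 ± 0.51). The Pfkp value rested on the parthenogenetic diploid array, at 2478 against 400 to 457 on the other 3. The target Stc2, from the list outside glucose metabolism, also had its high signal there, at 1036 against 104 to 491. It differed by 0.47 ± 0.89 (limma adjusted p 0.89), its probe sets ranging from -1.04 to 1.31. Without the parthenogenetic tetraploid array Pfkp differed by 2.59 and Stc2 by 2.07. Without the parthenogenetic diploid array Pfkp differed by 0.18 and Stc2 by -1.13.

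**Figure D4:**
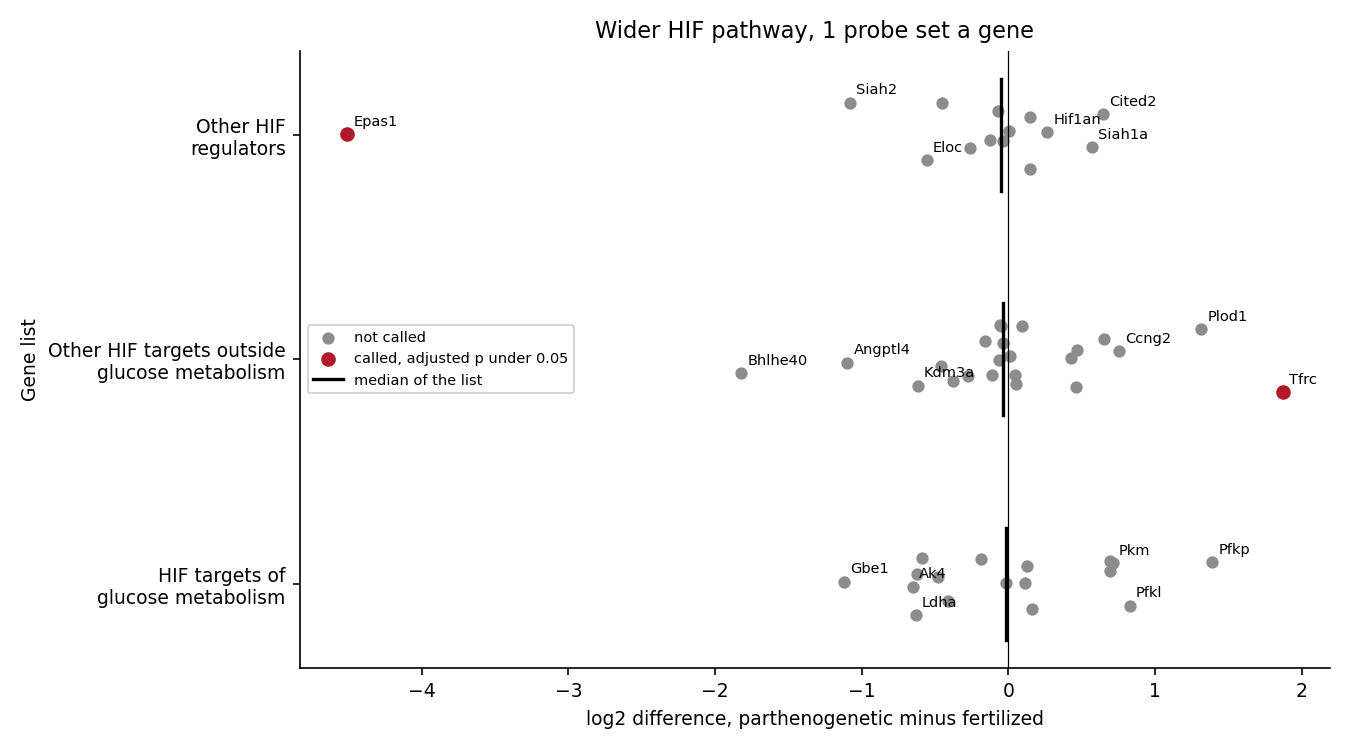
Log2 differences, parthenogenetic minus fertilized, of the 54 tested genes of 3 wider HIF pathway lists, 1 point for each gene, with the median of each list as a black bar. Red points, Epas1 and Tfrc, had a limma adjusted p under 0.05, and the 3 medians lie between -0.05 and -0.02. Epas1 was chosen for its low signal in these same data.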

How the data were processed

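The authors deposited 1 intensity per probe set and array, a MAS5 signal on a linear scale (MAS5 per the submitters' processing notes, with no version there). On every array the mean with 2% trimmed at each end was 500.0. Genes were named from the platform annotation, with symbols updated by gene number through RefSeq (GRCm38.p6), which matched 34741 of 34945 probe sets with 1 symbol. Probe sets were kept where the signal reached the array's median on at least 2 arrays. Origin (2 against 2 arrays) and ploidy (origin as covariate) were tested on log2(signal + 10) with limma 3.58.1 in R 4.3.3, with an intensity trend and Benjamini-Hochberg adjustment over all 23746 probe sets kept, at a threshold of 0.05. The fit by origin had 2 residual degrees of freedom, to which limma added 9.59 from the spread shared between probe sets. Its p-values thus rest mostly on that shared spread. All of it comes from the same 4 arrays, in which ploidy, pool and technical error are mixed. On the log2(signal + 10) scale the 2 parthenogenetic arrays correlated at a Pearson r of 0.824 over probe sets other than controls. The parthenogenetic diploid array correlated more with the fertilized diploid (0.844) and fertilized tetraploid (0.861) arrays. The 2 fertilized arrays had the highest value, 0.871. Where both arrays of an origin lay at or below the floor and both of the other above it, a bound is given beside the fitted difference. It is a bound on the mean log2 signal over both ploidies and need not hold within 1 ploidy. That floor was chosen after seeing the data. A limit for all values is the number of arrays. Probe-level data, detection calls and dates of scanning are not analysed here.

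The members and lists were chosen with earlier results of these data known. Named genes are all members, Epas1, and in each wider list every called gene and the 3 highest and 3 lowest differences. Stc2, Pgk1, Aldoa and Hk2 were added after their values were seen. Alternatives changed the pseudocount (1, 50), filter, trend, scaling, ploidy block, arrays and probe set choice.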

Additional observations from a re-analysis of the deposited data

Results flagged for a closer look

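Ddit4 and Vegfa were flagged because their difference by origin ran in opposite directions in the 2 ploidies, by at least 0.5 on the log2 scale each way. Ddit4 was higher in parthenogenetic embryos by 1.28 between the diploid arrays and lower by a difference of -0.53 between the tetraploid ones. Vegfa (1420909_at) had differences of 1.34 and -1.86, and 2 of its 4 signals were below the floor. The difference between the ploidies was not tested, because 4 arrays leave no residual degree of freedom for it. Among all probe sets tested, 10.7% met the same criterion, and among the members 2 of 19 did, a share near that of all.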

How the results depend on the processing

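Under the 12 alternatives by origin planned for the members, 0 member probe sets were called, including with ploidy as a replicate block, and 0 were called by ploidy under its 7. The same held by origin after leaving out probe sets kept through 1 origin, an alternative chosen after seeing the data. Of 223 alternative values of single probe sets, 208 kept their direction and 15 reversed. Many could not have reversed, so the 208 are no measure of robustness. Changes of filter, trend or ploidy block leave a fitted difference as it was. Leaving out 1 array cannot reverse a probe set whose origins do not overlap. Reversed values were -0.25 for Hif1a 1416035_at with common median scaling, and, leaving out 1 array at a time, ranges of -0.11 to 0.25 for that probe set, -0.081 to 0.069 for Vhl 1421071_at, -0.36 to 0.29 for Bnip3, -0.18 to 1.19 for Arnt 1419996_s_at, -1.35 to 0.37 for Arnt 1449696_at, -0.36 to 0.20 for Ndrg1 1420760_s_at, -0.75 to 0.059 for Ndrg1 1450976_at, -1.11 to 0.58 for Vegfa and -0.29 to 1.04 for Ddit4. Of the wider lists, 2 genes were called, 0 without the trend, 1 with common median scaling, 1 with probe sets averaged, and 2 to 4 leaving out 1 array. The cause was not tested.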
